A study of Homo sapiens with 34 samples.

Results

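The perturbation named ecSE1 was compared with the vector in COLO320 DM, a colorectal adenocarcinoma line whose copies of the oncogene MYC sit on circles of DNA outside the chromosomes, called ecDNA. The members were the 3 peak lists titled as ecSE1 perturbation and the 3 titled as vector, chosen by sample title, so 6 of the 34 libraries of the series. Each library came from bulk cells of 1 line, with 50000 nuclei collected 3 days after 700 ng of sgRNA plasmid had been delivered by lipofection. The control libraries are labelled as vector, without further detail, and the labels call the treatment a CRISPR-based epigenomic perturbation. They name neither the effector, nor the guide sequences, nor the genome position of ecSE1. The other COLO320 DM groups, with 3 libraries each, were perturbations of ecSE2, ecSE3 and ecSE4 and a combination whose content the labels do not give. CUT&Tag tethers a transposase to an antibody, so that DNA is cut and tagged where the antibody binds. The antibody here was a rabbit one labelled anti-H3K9me, and the degree of methylation is not stated. Because the nuclei were pooled, fewer nuclei with the mark and less mark per nucleus cannot be told apart. The labelled line cannot be checked against markers of expression here, since only this histone mark was measured.

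Methylation of lysine 9 of histone H3 marks heterochromatin. SETDB1, SUV39H1 and related enzymes write it, and proteins of the HP1 family (CBX1, CBX3 and CBX5) bind it and help it pass to neighbouring nucleosomes. KRAB zinc finger proteins bring TRIM28 and SETDB1 to chosen DNA sequences, and a KRAB domain fused to a programmable DNA-binding protein is a common tool for placing the mark at enhancers. The stretch of chromosome 8 below MYC holds long non-coding RNA genes, among them CASC21, CASC19, CASC8, CCAT1 and PCAT1, and is known for enhancers of MYC in colorectal cancer.

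The deposited lists differed in length far more between replicates than between groups. The vector lists held 16471, 9385 and 24352 peaks, and the ecSE1 lists 13303, 125213 and 25592. The mean log10 number of peaks was 4.54 ± 0.50 (SD, n = 3) with ecSE1 and 4.19 ± 0.208 (SD, n = 3) with the vector (two-sided exact permutation test p = 0.4, where 3 against 3 allows no p below 0.1). Every list was therefore also reduced to its 9385 best peaks by the authors' q-value, the length of the shortest. At that point the -log10 q was 5.70, 3.00 and 8.11 in the vector lists and 4.67, 12.2 and 8.56 in the ecSE1 lists. Even at equal length ecSE1 replicate 2 stood apart: its share of 1 kb bins in common with any other of the 6 lists was 12.3% to 13.2%, against 17.2% to 25.4% among the other 5. No pair of lists was a duplicate. Lists of equal length are used below unless the deposited lists are named.

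One place separated the groups by a wide margin, a stretch of 7 kb at chr8:127245001-127252000 (hg38) at the lower end of CASC21. CASC21 is a long non-coding RNA gene at chr8:127244637-127392631, and the highest summit of the stretch lies 488 kb below MYC. Peaks covered 5290, 4953 and 5219 bp of the stretch in the 3 ecSE1 lists and 0, 355 and 0 bp in the 3 vector lists. The means were 5154 ± 178 bp with ecSE1 and 118 ± 205 bp with the vector (SD, n = 3 each), with no overlap, and this place was chosen with its result known, so no test is given. In the deposited lists vector replicate 3 also had 439 bp there, while the other 5 values were the same. The stretch held 6 of the 99 bins of 1 kb gained genome-wide, a gained bin being one with a peak in all 3 ecSE1 lists and in no vector list. Those 99 were 0.198% of the 49987 bins of 1 kb with a peak in any of the 6 lists, and 149 bins (0.298%) were lost, with the reverse pattern.

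The highest peaks of the ecSE1 lists lay in this stretch. The best peak of replicate 1 was at chr8:127245177-127248360, with 5431 fragments at the summit over a local background of 1577 fragments, a fold of 3.44 in the authors' list. In replicate 2 the peak at chr8:127246275-127248432 ranked 2, with 7673 fragments over 1930 and a fold of 3.97. In replicate 3 the peak at chr8:127245181-127248353 ranked 1, with 7626 fragments over 2474 and a fold of 3.08. Their summits were at 127247884, 127247181 and 127247888, and the first of these, the middle one of the 3, is taken as the centre below. The vector lists held only small peaks here: in replicate 2 the peak at chr8:127247176-127247530 ranked 7291 with 111 fragments over 62.4, a fold of 1.77. In vector replicate 3 the deposited peak at chr8:127250504-127250942 ranked 12324 with 105 fragments, and replicate 1 had none. Of the 20 best peaks of each list, 4 lay within 25 kb of the centre in each ecSE1 list and 0 in each vector list.

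To compare heights between libraries, the fragment numbers were divided by a factor per library, the median ratio over the 1128 bins of 5 kb with a peak in all 18 COLO320 DM lists; these are called scaled fragments. At the centre the ecSE1 summits were 7296, 8482 and 6502 scaled fragments (7427 ± 997, SD, n = 3), against 137 in the only vector list with a peak there. The scaled local background at those ecSE1 summits was 2118, 2134 and 2109 fragments, a spread far below that of the summits.

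The other perturbations gave the same stretch with little or no cover, except the combination. Cover was 132 ± 228 bp with ecSE2, 0 bp in all 3 lists with ecSE3 and 187 ± 163 bp with ecSE4 (SD, n = 3 each). With the combination it was 4593, 5055 and 4978 bp (4875 ± 248, SD, n = 3), overlapping the ecSE1 values. The combination's summits at the centre were lower than those of ecSE1, at 5325 ± 447 scaled fragments (SD, n = 3), and the groups did not overlap. Both comparisons use the same vector libraries. In PC3 DM, a prostate cancer line that also carries MYC on ecDNA, the perturbation of the same name gave 0 bp in all 3 deposited lists, and the vector 303 and 0 bp. The labels do not say whether ecSE1 is the same DNA in both lines.

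**Figure D1:**
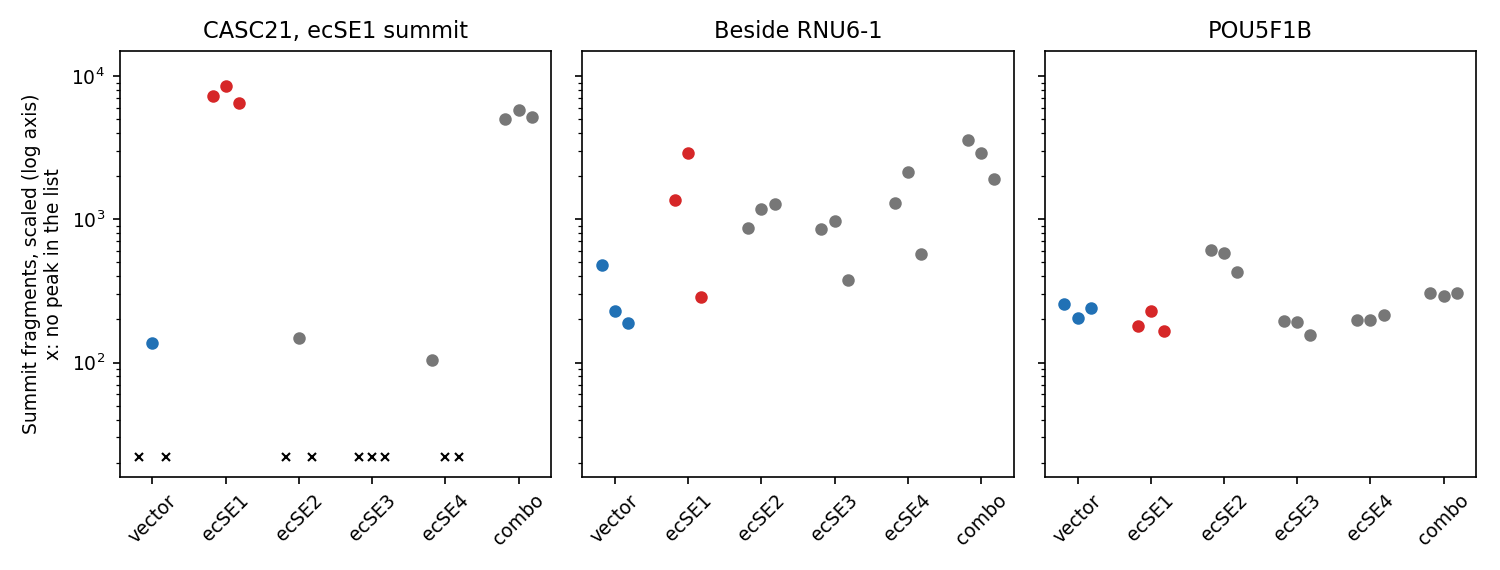
Summit height in scaled fragments, on a log axis, at the CASC21 centre, beside RNU6-1 and at POU5F1B, each point being 1 COLO320 DM library of the group on the horizontal axis and each cross a list without a peak there. At the CASC21 centre the ecSE1 libraries lie between 6502 and 8482 and the combination libraries below them, while the vector has 1 point, at 137; at POU5F1B the ecSE1 and vector points mix.

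The rise around the centre faded over about 20 kb on each side. In distance bins of 5 kb, the highest summit was higher in all 3 ecSE1 libraries than in all 3 vector libraries in every bin from -20 to +20 kb where both groups had peaks in all their libraries. At -5 kb, just outside the lower end of CASC21, ecSE1 had 4315, 4260 and 4494 scaled fragments and the vector 422, 368 and 442. The mean ratio there was 10.6, and it fell to 4.7 at -10 kb, 2.1 at -15 kb and 1.4 at -20 kb. On the other side, inside CASC21, the ratio was 2.1 at +10 kb and 1.5 at both +15 and +20 kb. At -25 and +25 kb the summits of the 2 groups overlapped, with ratios of 1.3 and 1.2, and they overlapped in every distance bin from 35 to 60 kb away in which all 6 libraries had a peak.

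The local background, which averages a wider window and so is less tied to single summits, fell away in the same way and stayed above the vector slightly further on the higher side. In the 3 ecSE1 libraries it was 2118, 2134 and 2109 scaled fragments at the centre, 943, 979 and 921 at -10 kb, 273, 463 and 375 at -15 kb and 182, 252 and 158 at -20 kb. The vector had 177, 170 and 148 at -10 kb and 152, 128 and 113 at -20 kb. The ecSE1 background was thus 13.9 times that of the vector at -5 kb, 5.8 times at -10 kb, 3.1 times at +10 kb and 1.6 times at +15 kb. At +25 kb, where the summits overlapped, the background was still higher in all 3 ecSE1 libraries than in all 3 vector libraries, by 1.3 times, and at -25 kb it overlapped.

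The sides were compared at about 16 kb, where the highest summits lay at like distances, -16.3 to -16.2 kb below the centre and 16.3 to 16.4 kb above it. The lower summit divided by the higher-side one was 1.60, 1.93 and 1.44 in the ecSE1 libraries and 1.19, 1.26 and 1.02 in the vector libraries. The groups did not overlap (difference 0.52 on the log2 scale). This place was chosen with its result known and 6 such ratios were computed, so no p-value is given. In the distance bins at 10 and 20 kb the summits lay at unequal distances on the 2 sides, so the ratios at those bins do not compare the sides. At 10 kb these ratios were 2.05, 1.97 and 1.86 with ecSE1 and 1.07, 0.93 and 0.67 with the vector, without overlap. At 20 kb they were 0.77, 0.80 and 0.81 with ecSE1 and 0.86, 0.95 and 0.74 with the vector, and the groups overlapped.

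**Figure D2:**
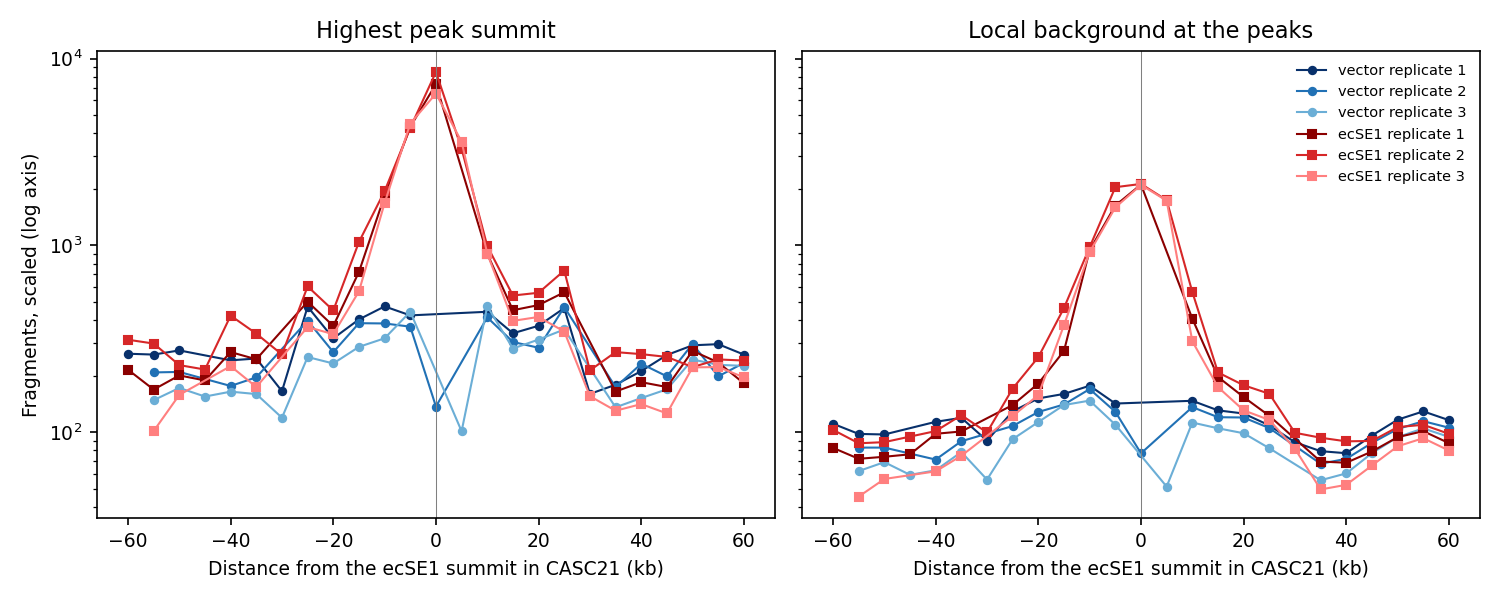
Highest summit (left) and local background (right) in scaled fragments, on a log axis, against the distance in kb from the centre of the CASC21 stretch, 1 line per library for 3 ecSE1 (squares) and 3 vector (circles) libraries. The ecSE1 lines lie above all vector lines from -20 to +20 kb and, where all 6 libraries have a peak, overlap with them from 35 kb outward.

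Within 5 kb of the centre peaks covered more of the sequence in every ecSE1 list than in every vector list. Beyond that this held in no distance band. In the lower 0 to 5 kb from the centre peaks covered 66.8 ± 0.6% of the sequence with ecSE1 and 13.0 ± 3.4% with the vector, and in the upper 0 to 5 kb 51.9 ± 1.8% and 0% (SD, n = 3 each). In the lower 5 to 10 kb the cover was 44.6 ± 2.8% with ecSE1 and 51.2 ± 3.1% with the vector. There the vector libraries already had peaks, and the ecSE1 peaks at the same place were taller while their cover was no larger. The local background there was itself higher with ecSE1, so cover by peaks does not show how far the mark extended.

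A test of peak height was run across the genome on the bins of 5 kb with a peak in all 6 deposited lists, of which there were 1718, 174 of them within 2 Mb of MYC. It used limma on log2 scaled summit fragments with Benjamini-Hochberg adjustment at 0.05 and was chosen after the data were seen. Of these bins 4 (0.233%) were higher with ecSE1 and 0 were lower, while 110 had an unadjusted p under 0.05. The centre itself could not enter, because not every vector list had a peak there. All 4 bins lay within 25 kb of the centre.

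The bin at chr8:127240001-127245000, which holds the lower end of CASC21, had 4315, 4260 and 4494 scaled fragments with ecSE1 and 422, 380 and 442 with the vector. Its log2 difference was 3.40 ± 0.15 (SE; 95% interval 3.08 to 3.71), 10.5-fold (limma adjusted p = 5.52e-13). The bin at chr8:127235001-127240000, which holds no RefSeq gene, had 1845, 1693 and 1686 against 472, 382 and 318. That was a log2 difference of 2.17 ± 0.17 (SE), 4.51-fold (limma adjusted p = 1.92e-08). The next bin down, at chr8:127230001-127235000, had 721, 1044 and 568 against 402, 384 and 287, 2.13-fold (limma adjusted p = 0.0123). Inside CASC21 the bin at chr8:127255001-127260000 had 901, 993 and 905 against 442, 412 and 473, 2.11-fold (limma adjusted p = 0.000618). In each of the 4 bins every ecSE1 library was above every vector library. All 4 still passed without ecSE1 replicate 2, while the bin starting at 127230001 no longer did without ecSE1 replicate 1 (limma adjusted p = 0.107) or without vector replicate 3 (0.601).

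The bins next to these did not pass the test. The bin at chr8:127260001-127265000 had a log2 difference of 0.58 and the one at chr8:127265001-127270000 of 0.58 (limma adjusted p = 0.653 for both). At chr8:127205001-127210000, which holds the lower end of CCAT1, a long non-coding RNA gene active in colorectal cancer, ecSE1 had 269, 421 and 226 scaled fragments and the vector 243, 177 and 165. This was a log2 difference of 0.62 (limma adjusted p = 0.653), and the groups overlapped. When the ecSE1 libraries were set against all 12 libraries of the vector, ecSE2, ecSE3 and ecSE4, 8 of 1281 bins were higher and 0 lower. These were the same 4 bins, together with the bins of CASC21 starting at 127260001 and 127265001, the CCAT1 bin starting at 127205001 and the bin starting at 127225001. In the bin starting at 127260001 the vector had 339, 304 and 281 scaled fragments, and the ecSE2, ecSE3 and ecSE4 libraries lay lower, at 209 to 243. In the other added bins these libraries overlapped the vector.

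In the rest of the 4 Mb around MYC no bin of 5 kb was gained. The window from 125735434 to 129735434 on chromosome 8 held 4.19 ± 0.980% of the 9385 peaks with ecSE1 and 4.18 ± 0.260% with the vector (SD, n = 3 each; difference 0.0071 percentage points, two-sided exact permutation test p = 1). By library the shares were 3.88%, 5.29% and 3.40% with ecSE1 and 4.46%, 3.95% and 4.12% with the vector. Without ecSE1 replicate 2 the difference was -0.542 points. All of chromosome 8 held 8.46 ± 1.00% and 8.34 ± 0.148% (exact permutation p = 0.9), and without that library the difference was -0.414 points. Of the 100 best peaks of each list, 66, 70 and 64 lay in the window with ecSE1 and 76, 72 and 69 with the vector. Of 343 bins of 5 kb with a peak in the window in any list, 1 was gained (0.292%), chr8:127250001-127255000 in CASC21, and 2 were lost (0.583%). Without ecSE1 replicate 2, when 2 lists suffice, 3 were gained.

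The longest lost domain of the genome, with 3 lost bins of 1 kb no more than 5 kb apart, also lay in this window, at chr8:127647001-127654000, where RefSeq has no gene. Peaks covered 588, 511 and 1104 bp of it with the vector and 0 bp in all 3 ecSE1 lists. In its 3 called bins this direction was set by the way they were chosen. The combination covered 0, 0 and 850 bp of the domain.

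Away from the centre, heights in the window lay slightly lower with ecSE1 under the scaling used. Within 25 kb of the centre the median log2 difference of 8 bins was 0.83, from 0.30 to 3.40, and 7 of the 8 had all ecSE1 libraries above all vector libraries. Between 25 and 50 kb the median of 7 bins was 0.00, with none separated. From 50 to 100 kb it was -0.26 in 12 bins, from 100 to 250 kb -0.21 in 37, from 250 to 500 kb -0.20 in 62 and from 500 to 1000 kb -0.26 in 47. Outside the window the median was 0.01. Of 159 window bins beyond 50 kb from the centre, 32 (20.1%) had all ecSE1 libraries below all vector libraries and 0 above. In the whole window 32 of 174 bins (18.4%) were below and 7 (4.02%) above. Over all 1718 bins those shares were 6.46% below and 6.4% above, and outside the window 5.12% and 6.67%. With factors from shared bins outside the window the median beyond 50 kb was -0.24, with 0 bins above and 30 below. Factors from the window's own shared bins place its median near 0 by construction (-0.01, with 5 above and 9 below), and the median of all bins then moved to 0.18, a shift of 0.199, so these heights are lower only relative to the rest of the genome. The other perturbations also lay below the vector in flanking bins: at +50 kb the mean summit was 278 ± 28.7 with the vector, 240 ± 28.8 with ecSE1, 229 ± 43.7 with ecSE2, 185 ± 16.1 with ecSE3 and 185 ± 17.8 with ecSE4 (scaled fragments, SD, n = 3 each), all compared with the same vector libraries. The number of ecDNA copies per library was not measured here and its part in these heights was not tested.

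**Figure D3:**
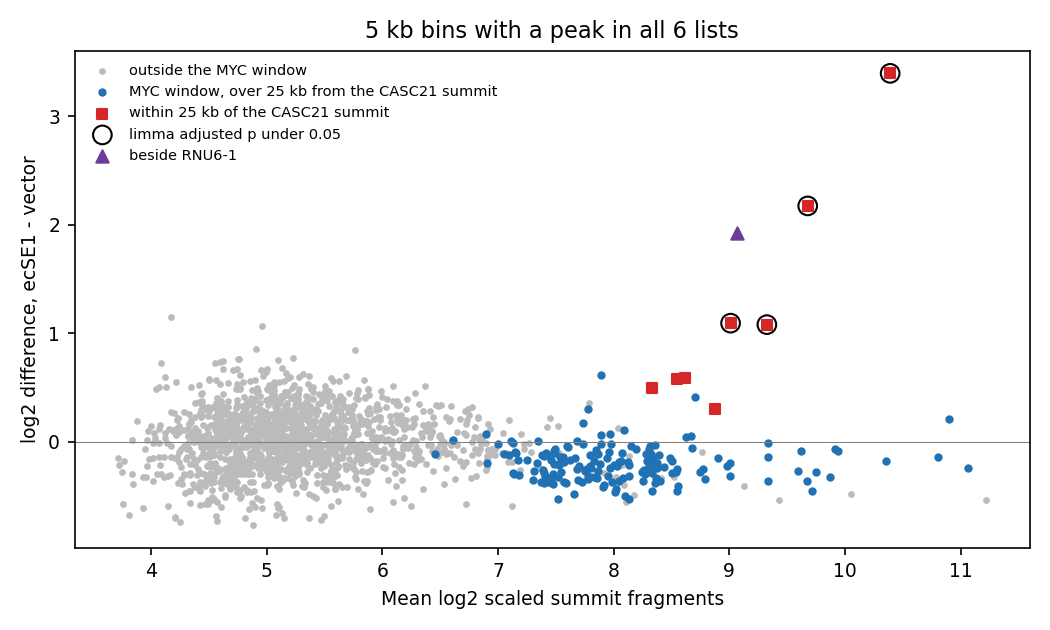
Log2 difference of scaled summit fragments, ecSE1 minus vector, against mean log2 height for the 1718 bins of 5 kb with a peak in all 6 deposited lists, coloured by place. The 4 circled bins passed the limma test, lie within 25 kb of the CASC21 centre and have differences from 1.08 to 3.40; the triangle is the RNU6-1 bin, at 1.92, which did not pass.

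MYC, the oncogene on the ecDNA, had no peak in the gene or 2 kb to either side in any ecSE1 list of equal length, and 0, 227 and 562 bp in the vector lists. The vector lists thus overlapped those of ecSE1 at 0. In the deposited lists peaks at MYC ranked 19180 and 9779 in 2 of the ecSE1 lists and 3459 and 876 in 2 of the vector lists. The combination covered 4162, 4075 and 3661 bp at MYC, in contrast to ecSE1. PVT1, the long non-coding RNA gene above MYC, was covered over 13093, 11560 and 20970 bp with ecSE1 and 15296, 13693 and 22147 bp with the vector, and the groups overlapped. CASC11, a long non-coding RNA gene just below MYC, had 1869, 2961 and 5630 bp against 3286, 4438 and 6794 bp, also overlapping.

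Among the genes closer to the centre, CASC21, CASC8, CCAT1, CCAT2, PCAT2 and PRNCR1 overlapped between groups in covered length, while CASC19, POU5F1B and PCAT1 had less cover with ecSE1. The whole of CASC21 was covered over 35616, 39967 and 37796 bp with ecSE1 and 33356, 32668 and 36284 bp with the vector, so even the gene that holds the stretch overlapped in total cover. CASC8 had 35093, 40199 and 39194 bp against 43362, 38467 and 45449 bp, with overlap. CCAT1, 28.6 kb below the centre, had 2254, 2300 and 1894 bp against 3365, 1224 and 2811 bp, also with overlap. CASC19 lies 50.3 kb below the centre and had less cover with ecSE1, at 1581, 1936 and 1666 bp against 2607, 2220 and 2526 bp. POU5F1B, a retrogene of the pluripotency factor OCT4 165.6 kb above the centre, had 1202, 1294 and 1307 bp against 2227, 1963 and 1957 bp. PCAT1, a long non-coding RNA gene first described in prostate cancer, had 1720, 2183 and 1772 bp against 2845, 2645 and 2437 bp. In these last 3 genes no ecSE1 list reached the lowest vector list. Of the 823 genes with a peak in all 6 lists, cover was lower in all ecSE1 lists than in all vector lists in 33 (4.01%) and higher in 23 (2.79%). LRATD2 had no peak in any of the 6 lists.

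The best 100 peaks of each list, a length chosen after the data were seen, added places outside the CASC21 stretch. Of the 193 bins of 5 kb that held one of them, 4 (2.07%) were gained and 3 (1.55%) lost, and a peak can span more than 1 bin. The gained bins were those of CASC21 starting at 127245001 and 127250001, the CCAT1 bin starting at 127205001 and a bin of CASC8 starting at 127445001. The CCAT1 bin ranked 99, 61 and 74 with ecSE1 and 369, 660 and 666 with the vector. Its peak ranked 126 to 294 with ecSE2, 116 to 370 with ecSE3 and 160 to 411 with ecSE4, mostly also ahead of the vector. As given above, its heights overlapped between ecSE1 and the vector. The CASC8 bin ranked 88, 38 and 100 against 285, 443 and 311, so both bins had a peak in all 6 lists and differed in rank.

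Outside the MYC window, bins that gained a peak were few and short. Over the genome 66 of 34352 bins of 5 kb with a peak in any list were gained (0.192%) and 113 were lost (0.329%). Which number was larger depended on the lists: in the deposited lists 521 bins were gained and 48 lost. Without ecSE1 replicate 2 the numbers were 456 and 158. A gain then asks for a peak in 2 ecSE1 lists, but a loss still for a peak in 3 vector lists. That rule by itself favours gains, so these numbers do not compare the directions. Of the 66 gained bins 38 kept their call in the deposited lists, and of the 113 lost bins 13 did. Of the gained bins 65 lay outside the window, on 20 chromosomes in all, with 13 on chromosome 3; of the lost bins 111 lay outside it. Peaks in the gained bins outside the window reached at most a mean of 888 bp, against 1159 bp in the gained CASC21 bin of the window, with a median of 375 bp over all gained bins. The lost bins had a median of 403 bp. Most bins held a peak in only 1 list: 12376 in only 1 ecSE1 list and 11530 in only 1 vector list, against 1103 in all 6.

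**Figure D4:**
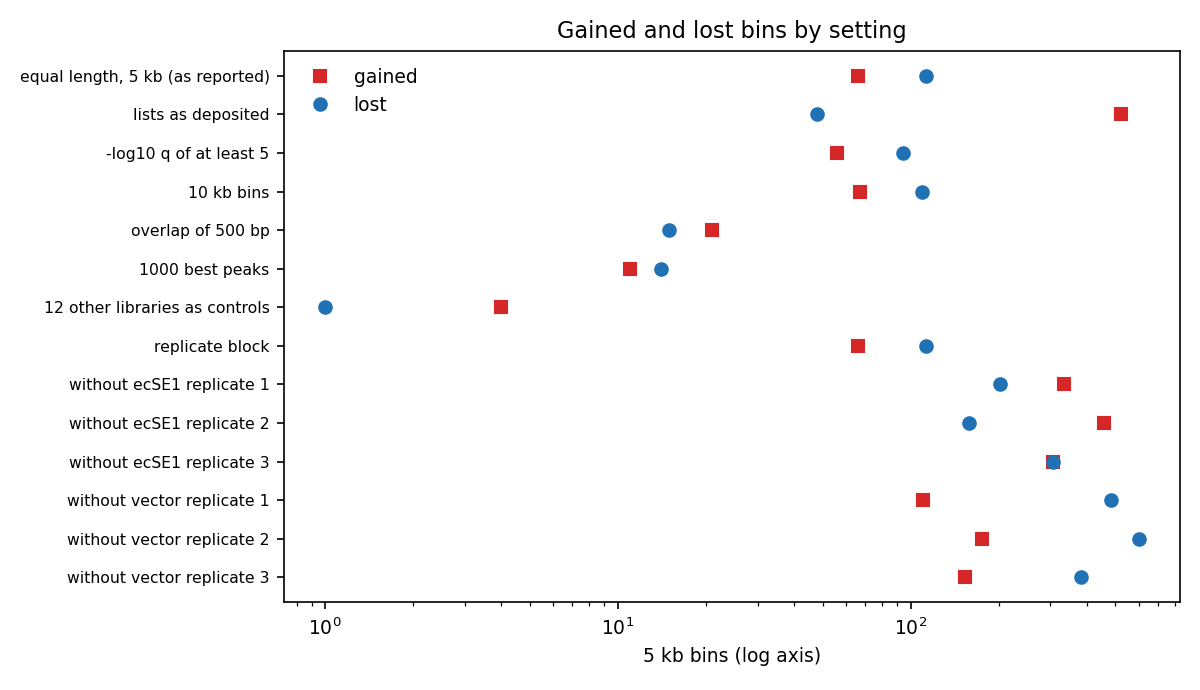
Number of gained (squares) and lost (circles) bins of 5 kb, on a log axis, under each setting named on the vertical axis. The order of the 2 numbers changes between settings, from 66 gained and 113 lost in lists of equal length to 521 and 48 in the deposited lists, and against 12 libraries 4 were gained and 1 lost.

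Most gained places also had peaks in libraries of other perturbations. Of the 66 gained bins, 36 had a peak in at least 5 of the 9 lists of ecSE2, ecSE3 and ecSE4, and 4 in none. Of the 113 lost bins, 54 had a peak in at least 5 of those 9 and 7 in none. The same shares over all bins are not given here. These counts therefore do not show whether gained or lost bins recur more often than others. The gained bin with the most cover outside the window, at chr13:78115001-78120000 in OBI1-AS1, had 623, 352 and 1690 bp with ecSE1, and 7 of the other 9 lists had a peak there. On chromosome 8 a gained bin in STK3, which encodes a kinase of the Hippo pathway, had 346, 842 and 909 bp at chr8:98745001-98750000, and 8 of the other 9 lists had a peak.

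Set against the 12 libraries of the vector, ecSE2, ecSE3 and ecSE4, no bin passed Fisher's exact test. Of 12451 bins tested, 0 (0%) had an adjusted p under 0.05, and 154 had an unadjusted p under 0.05. The smallest p this design allows is 0.0022, and 548 bins at that p would have been needed for any to pass. Complete separation was seen in 5 bins, each with an exact p of 0.0022 and an adjusted p of 1. In 4 of them all 3 ecSE1 lists had a peak and none of the 12 did. They were chr11:55075001-55080000 without a gene (245, 208 and 371 bp), chr15:99310001-99315000 in LRRC28 (287, 196 and 411 bp) and 2 neighbouring bins from chr3:45365001 that share a peak. The other, chr2:154275001-154280000 in GALNT13, an enzyme of O-linked glycosylation, was covered over 345, 616 and 705 bp with the vector and had a peak in all 12 lists and in no ecSE1 list. The CASC21 stretch is not among the 5, since its bins had small peaks in some of the 12.

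**Figure D5:**
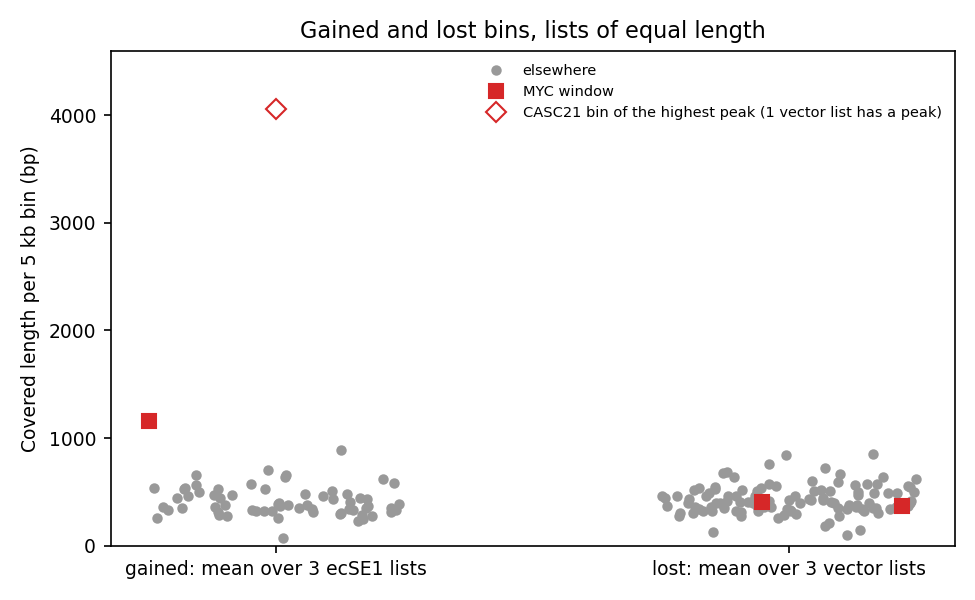
Covered length in bp of each gained bin of 5 kb (mean of 3 ecSE1 lists) and each lost bin (mean of 3 vector lists), with squares for bins in the MYC window. The diamond is the CASC21 bin of the highest peak, which is no gained bin because 1 vector list has a small peak in it; it stands far above all others, and the gained bin next to it is the highest of the 66.

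Joined bins showed the same contrast in length. Gained bins of 1 kb no more than 5 kb apart formed 84 domains, of which 73 were a single bin, 10 were 2 bins and 1, the CASC21 stretch, was 6 bins. Lost bins formed 133 domains: 118 of 1 bin, 14 of 2 and 1 of 3. Gained domains of 2 bins lay in MTUS2, ZNF665, ZNF274, MEIKIN, STK3 and LOC105375970, and 4 more lay outside genes. ZNF274 encodes a KRAB zinc finger protein that is itself known to bring SETDB1 to the 3' ends of zinc finger genes. Its gained domain held only 354, 253 and 301 bp with ecSE1. The lost domain of 4 kb at chr6:88028001-88032000 had 818, 973 and 988 bp with the vector, and further lost domains lay in LINC02383, MEGF10, GRHL2 and IL1RAPL1.

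Genes that gained and genes that lost a peak were about equally many at equal list length. Of 8693 genes with a peak in the gene or 2 kb to either side in any of the 6 lists, 44 (0.506%) were gained and 43 (0.495%) lost. In the deposited lists 234 were gained and 4 lost. Without ecSE1 replicate 2 the numbers were 161 and 89, under the same uneven rule as for bins. Among 4172 protein-coding genes the numbers were 24 (0.575%) and 20 (0.479%). The gained genes with the largest cover included ZNF75D, a zinc finger gene on the X chromosome, with 607, 391 and 2255 bp, and all 9 lists of the other single perturbations had a peak in it too. PTPRK, a receptor tyrosine phosphatase, had 1169, 589 and 421 bp. UBXN7, an adaptor of the segregase p97, had 510, 1096 and 522 bp. ZEB1, a repressor known for its part in the epithelial to mesenchymal transition, had 839, 569 and 302 bp, with a peak in 2 of the other 9 lists. SHISA6, a partner of AMPA receptors, had 737, 308 and 602 bp, with a peak in 1 of them. The others among the 12 with the largest difference were TGM4, ZNF438, PDZD2, ELFN1, AKR1C3, DTWD1 and SMC1B. In the deposited lists ZNF75D, UBXN7 and ZEB1 also had a peak in 1 vector list, and PTPRK and SHISA6 in 2. Of the 12, only ELFN1, DTWD1 and SMC1B had a peak in no deposited vector list.

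Among the lost genes CPNE4, a calcium-binding copine, had 686, 275 and 1265 bp with the vector and none with ecSE1. GPRC6A, an amino acid receptor, had 763, 410 and 564 bp. PCSK5, a proprotein convertase, had 479, 454 and 384 bp, and none of the other 9 lists had a peak in it. ZNF154, a KRAB zinc finger gene of chromosome 19, had 754, 351 and 356 bp, with a peak in 8 of the 9. PSD3, on chromosome 8, had 338, 358 and 926 bp and was left out of the ranking, which excludes that chromosome. The others among the 12 with the largest difference outside chromosome 8 were NCKAP5, LOC124904660, ANAPC10, ZNF239, CFAP221, CFAP91, ME2 and CFAP263. In the deposited lists 8 of these 12 turned in direction, and 5 of the 8 (CPNE4, NCKAP5, LOC124904660, CFAP221 and PCSK5) had a peak in all 3 ecSE1 and all 3 vector lists. Against the 12 libraries of the vector and the other single perturbations, 0 genes were gained and 0 lost.

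In no gene list did every ecSE1 library lie apart from every vector library. The 26 genes of the MYC neighbourhood had a peak in 56.4 ± 2.2% of members with ecSE1 and 56.4 ± 2.2% with the vector (SD, n = 3 each), with 0 gained and 0 lost. Of the 250 ZNF genes on chromosome 19, a family known to carry H3K9 methylation, 38.7 ± 3.6% and 40.5 ± 1.8% had a peak, with 0 gained and 3 lost of the 175 with a peak in any list, ZNF556, ZNF404 and ZNF154, beside 43 lost of 8693 (0.495%) over all genes. Over all 59094 genes 5.81 ± 0.16% and 5.70 ± 0.13% had one. Of the 21 writers, readers and erasers of H3K9 methylation 14.3 ± 0% and 20.6 ± 5.5% had a peak, and of the 392 olfactory receptor genes 2.55 ± 0.26% and 3.15 ± 0.29%. None of either list was gained or lost, and in the olfactory receptors the highest ecSE1 library and the lowest vector library met at 2.81%. The 21 imprinted genes had a peak in 14.3%, 19.0% and 23.8% of members with ecSE1 and 4.76%, 9.52% and 14.3% with the vector, so the groups met at 14.3%. In the 53 clustered protocadherin genes the shares were 1.89%, 0% and 24.5% with ecSE1 and 52.8%, 0% and 3.77% with the vector, a spread within each group far wider than any difference. The 9 genes around the 13q12 homeobox cluster, with PDX1 and CDX2, had 33.3 ± 11.1% and 40.7 ± 6.4%. PDX1 was covered over 401, 930 and 1146 bp against 512, 373 and 1014 bp, and CDX2, a master regulator of intestinal identity, over 0 bp in all ecSE1 lists and 223, 0 and 0 bp in the vector lists. The 14 genes of intestinal identity (4.76% in both groups) and the 11 neuroendocrine genes (6.06% in both) had almost no peaks.

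Promoters gave no gained or lost place. In windows of 300 bases around the RefSeq gene starts, 137 of 34961 held a peak in any list, with 0 gained (0%) and 0 lost (0%). A peak in all 6 lists was found in the windows of EEF1A1, the elongation factor gene, and LOC101929031. No sequence is printed for that reason.

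Outside chromosome 8 the peak ranked best in 2 of the 3 ecSE1 lists lay beside RNU6-1, a gene of the U6 small nuclear RNA of the spliceosome, at chr15:67839939-67840045. U6 promoters are also widely used to drive guide RNAs from plasmids, but the labels do not describe the promoters of these plasmids, and their part in this peak was not tested. The peak ran from 67840037 to 67840296 in ecSE1 replicate 1. It ranked 2, 1 and 16 in the ecSE1 lists and 4, 17 and 21 in the vector lists. Its height was 1365, 2898 and 286 scaled fragments with ecSE1 and 479, 230 and 189 with the vector, so that ecSE1 replicate 3 fell within the vector range. The log2 difference was 1.92 ± 0.49 (SE; 95% interval 0.90 to 2.94; limma adjusted p = 0.229), which did not pass. It passed when ecSE1 replicate 3 was left out (limma adjusted p = 2.76e-08) or vector replicate 1 (0.00803). The other groups were also above the vector mean, at 1110 ± 212 with ecSE2, 737 ± 316 with ecSE3, 1340 ± 782 with ecSE4 and 2801 ± 835 with the combination (SD, n = 3 each). Against the 12 libraries of the vector, ecSE2, ecSE3 and ecSE4 the difference was 0.57 (limma adjusted p = 0.842).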

How the data were processed

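The data were narrowPeak lists on hg38, 1 per library. The submitters' processing notes name MACS2 2.2.7.1, Bowtie2 2.3.5 and Trim Galore 0.6.6 as well as bedtools and SAMtools, without saying which did what. An FDR of 0.001 and removal of blacklisted regions are stated in the list names. The authors' score was not used. The fold is the authors' ratio of summit to local background. The -log10 p-value and -log10 q-value are the authors' Poisson values; lists were ranked by the deposited -log10 q. A control library or removal of duplicates: not given in the sources used here.

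Depth is unknown. Whole fragments at each summit were recovered from fold and p-value (tolerance 0.0005 in -log10 p), which assumes that the fold is (summit + 1) / (background + 1). The lowest local background was 0.562 to 0.788 fragments in the 6 libraries. Rank depends on depth, and summits are heights at 1 base. Peaks were compared by presence in bins of 5 kb and 1 kb, in genes with 2 kb on each side (RefSeq, GRCh38.p14), by exact permutation and Fisher's exact tests, and by limma 3.58.1 on scaled log2 summit fragments with Benjamini-Hochberg adjustment. The limma test fits ecSE1 and vector only, with a mean-variance trend, and bins with a peak in all 6 deposited lists. The design planned no test of heights. Scripts were tested on simulated data.

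Groups and replicate numbers came from the titles; no label says that replicates were separate cultures, so each p-value reflects only how far these libraries differ, possibly for technical reasons. Named genes were those at gained bins in the MYC window and at the longest domains, and list members called. The 12 protein-coding genes per direction outside chromosome 8 with the largest difference in cover were also named. So was a set around MYC with PDX1 and CDX2. The members and lists were chosen with earlier results of these data known. STK3, OBI1-AS1, GALNT13, LRRC28, PCAT1, PSD3, RNU6-1 and EEF1A1 were named after their values were seen. Alternatives are listed at the end.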

Additional observations from a re-analysis of the deposited data

Results flagged for a closer look

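The combination, which the comparison of ecSE1 with the vector does not use, carried the CASC21 stretch at chr8:127245001-127252000 as well. Its peaks covered a mean of 4875 bp there, against 118 bp with the vector. The labels do not say whether the combination includes ecSE1.

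The combination also had a higher peak beside RNU6-1 than the vector, by 3.30 on the log2 scale (limma adjusted p = 8.82e-13, with each of 3 libraries above each of 3). With ecSE1 the difference there was 1.92 and did not pass. The difference between the 2 was not tested.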

How the results depend on the processing

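Cover of the CASC21 stretch kept its direction in every setting run, from 4935 to 5136 bp more with ecSE1 when each library was left out. The stretch was itself built from bins with a peak in every ecSE1 list and in no vector list. Its direction was therefore set by the way it was chosen. Leaving out a library that helped to define it is no independent check. The share of peaks in the MYC window differed by 0.0071 points and turned to -1.18 in the deposited lists, -0.169 at a -log10 q of at least 5, -0.0142 in a window of 1 Mb and -0.144 by covered length, and ran from -0.542 to 0.401 without each library. On chromosome 8 the values were -0.776, -0.0658 and -0.119 for the first, second and last of these settings, and -0.414 to 0.582. The difference in log10 peaks was 0.0741 to 0.561 without each library.

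Gained bins numbered 521 in the deposited lists, 21 with an overlap of 500 bp, 11 in the best 1000 peaks, 4 against 12 libraries and 110 to 456 without each library (456 without ecSE1 replicate 2). Lost bins numbered 48, 15, 14, 1 and 158 to 602. In the MYC window gained bins numbered 2 at the stricter q, with 500 bp and in the best 1000, 0 with bins of 10 kb and against 12 libraries, and 1 to 3 without each library. Gained genes numbered 234, 13, 6, 0 and 74 to 170, and lost genes 4, 16, 4, 0 and 81 to 168. Leaving out a library eases the rule, which then asks for 2 lists in the group of that library only. Without an ecSE1 library this favours gains, and without a vector library it favours losses. In the deposited lists the cover of these lost genes was higher with ecSE1: CPNE4 795 bp, NCKAP5 1700, LOC124904660 86, ANAPC10 91.7, CFAP221 669, PCSK5 846, CFAP91 135 and ME2 109. Fisher's exact test called 0 bins in every setting run; in the best 100 peaks the smallest adjusted p was 0.0835.

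The limma count of 4 higher bins was 9 with factors from the window, 2 without the trend, 8 against 12 libraries and 3 to 5 without each library, with 0 lower in each. The bin at 127230001 lost its call without the trend (adjusted p = 0.289), without ecSE1 replicate 1 (0.107) and without vector replicate 3 (0.601), and the bin at 127255001 without the trend (0.0673). The RNU6-1 bin passed with the block (0.0172), by local background (0.0149), with window factors (0.0274), without vector replicate 1 (0.00803) and without ecSE1 replicate 3 (2.76e-08). The causes were not tested.

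Each library's deviation from the mean height of its group was taken in each of the 1718 bins of the limma test. These deviations correlated by 0.036, 0.029 and 0.192 between same-numbered ecSE1 and vector libraries. Between unlike-numbered ones they correlated by -0.153 to 0.115. The correlation of the heights themselves is not given. Whether replicate numbers pair the libraries was not tested. With the replicate block limma called 5 bins, and log10 peaks differed with p = 0.75 (exact permutation within numbers). Depth is unknown, so absence of a peak is absence from a list.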
